A study of Saccharomyces cerevisiae with 9 samples.

Results

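The 10 genes described here act in protein folding in the endoplasmic reticulum (ER) of budding yeast, Saccharomyces cerevisiae, or in the unfolded protein response (UPR) that regulates such genes. They were chosen by gene symbol: KAR2, LHS1, SCJ1, JEM1, PDI1, EUG1, MPD1, ERO1, IRE1 and HAC1. All 10 were found among the 5449 S. cerevisiae genes measured, each on 1 probe set of its own, and all lay above background on all 9 arrays. The array also carries a fission yeast probe set for that species' own ire1, which is no member.

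Cultures in rich YPD broth at mid-exponential phase received bisphenol A (BPA), the monomer of polycarbonate plastics, dissolved in ethanol, at 50 or 300 mg/L. Control cultures received an equal volume of ethanol, so every group carries the solvent, and all were exposed for 180 min. Each group has 3 samples, called biological replicates in the labels, with 1 array of biotin-labelled RNA per sample. Whether these came from separately started cultures is not stated. No label names the strain, its genotype or its growth during exposure. Values are log2 expression values normalized by the authors with RMA, so a difference of 1 is a 2-fold change, and every value is relative to the other transcripts of its array. Fewer cells expressing a gene and less RNA per cell cannot be told apart.

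Proteins that enter the ER are bound by Kar2, the yeast BiP, an Hsp70 chaperone that cycles with ATP. The J-domain proteins Scj1 and Jem1 stimulate its ATP hydrolysis, and Lhs1 and Sil1 exchange its nucleotide. Disulfide bonds are put in and rearranged by Pdi1 and its relatives, and Ero1 reoxidizes Pdi1. When unfolded proteins build up, the membrane kinase and nuclease Ire1 cuts an intron out of HAC1 mRNA, the tRNA ligase Trl1 joins the ends, and the Hac1 protein made from the spliced mRNA activates ER folding genes. KAR2 and PDI1 are textbook targets of this pathway.

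The arrays at 300 mg/L stood apart in their overall values. Their median over all probe sets was 4.86 to 4.96, against 4.42 to 4.58 on the other 6 arrays, and 5415 to 5418 genes lay above background, against 5363 to 5374. The median over S. cerevisiae genes was 8.03 to 8.07 on all 9 arrays. The part of this split in the results was not tested, beyond the alternative scalings. The lowest correlation of an array with another of its group was 0.9907. The median gene SD was 0.13 at 50 mg/L, against 0.074 in control and 0.079 at 300 mg/L. In that group replicate 2 deviated most from its group mean, with a median absolute deviation of 0.112 over all genes.

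At 300 mg/L BPA the disulfide isomerase genes were lower than in control, while KAR2 and both signalling genes did not pass the test. Of the 10 genes, 5 fell (MPD1, EUG1, PDI1, JEM1 and LHS1), 0 rose and 5 did not pass limma at an adjusted p under 0.05. The share of all genes that passed was 52.7%, with 25.2% lower and 27.5% higher. The count of 5 called genes is thus near the background share. The median difference over the 10 genes was -0.13 on the log2 scale, against 0.01 over all genes. Groups that did not overlap were seen for 6 of the 10, against 67.8% of all genes, and an unadjusted p under 0.05 for 5, against 58.2%.

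**Figure D1:**
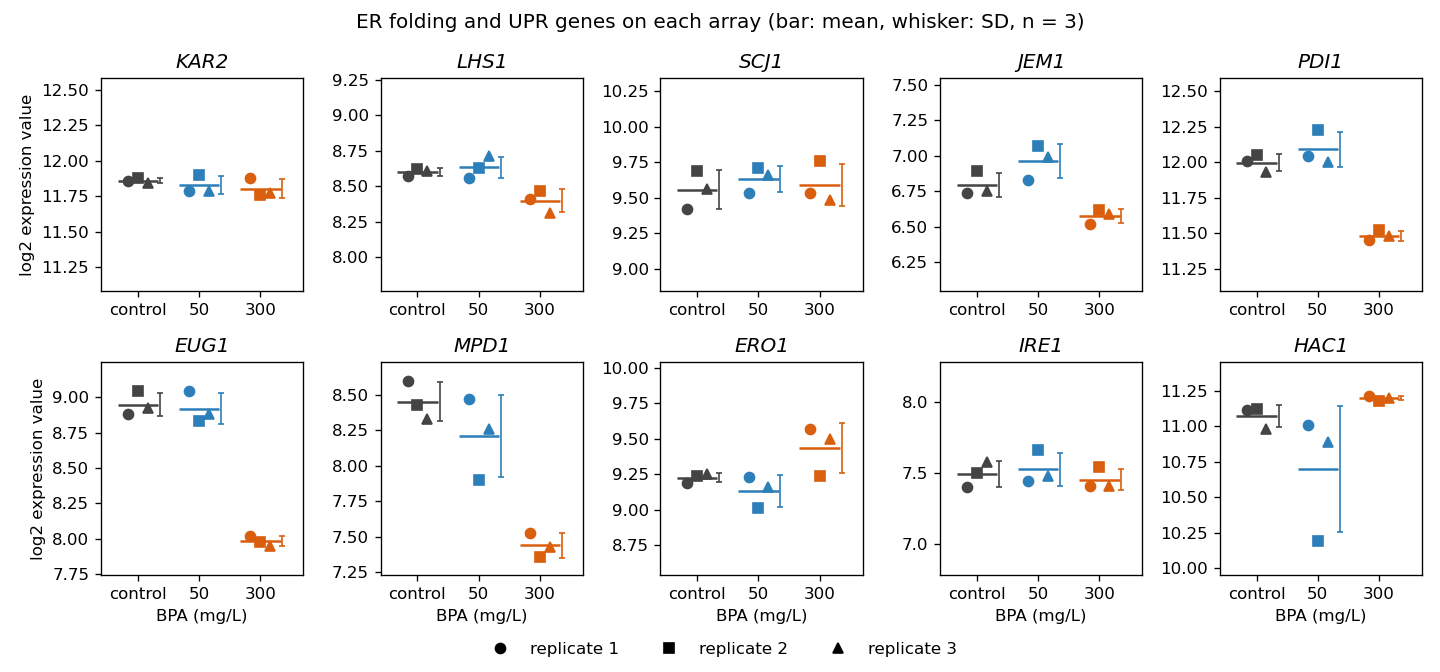
Log2 expression value (y axis, a span of equal size in each panel) of the 10 genes on each of the 9 arrays, by BPA concentration in mg/L (x axis). Symbols mark replicates, bars the mean and whiskers the SD of 3 arrays. PDI1, EUG1 and MPD1 at 300 mg/L lie below all control arrays, KAR2 stays between 11.76 and 11.90, and replicate 2 of the 50 mg/L group is low for HAC1, at 10.19.

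The disulfide genes held the largest changes. MPD1, a member of the PDI family, read 8.60, 8.43 and 8.33 in the control arrays, 8.47, 7.90 and 8.26 at 50 mg/L and 7.53, 7.36 and 7.43 at 300 mg/L. The highest value at 300 mg/L was below the lowest of the other groups. MPD1 fell by 1.01 ± 0.13 (SE) on the log2 scale at 300 mg/L against control, a 2.02-fold change (adjusted p = 0.000179 by limma). It was one of 65 genes, 1.19% of those tested, that were called lower by at least 2-fold, and it ranked 62 among the falls.

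EUG1 encodes another PDI relative, which is not essential. Its values were 8.88, 9.04 and 8.92 in control, 9.04, 8.83 and 8.88 at 50 mg/L and 8.02, 7.98 and 7.95 at 300 mg/L. The 300 mg/L arrays were close to each other and far below the rest. EUG1 fell by 0.96 ± 0.08 on the log2 scale, or 1.95-fold, at 300 mg/L against control (adjusted p = 8.68e-06 by limma), rank 75 among the falls.

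PDI1, the essential disulfide isomerase, read 12.01, 12.05 and 11.93 in control, 12.04, 12.23 and 12 at 50 mg/L and 11.45, 11.52 and 11.48 at 300 mg/L. It too was below every other array at 300 mg/L. The fall was 1.43-fold, with a difference of -0.52 ± 0.08 and an adjusted p of 0.000337 by limma. PDI1, EUG1 and MPD1 passed in the same direction under all 19 alternative settings run for this comparison. MPD1 lay between -1.10 and -0.94, EUG1 between -1.05 and -0.91 and PDI1 between -0.60 and -0.47. Not all of these settings could change a difference. Averaging probe sets and the background filter left the values of these genes as they were. The replicate block, a mean-variance trend, leaving out a 50 mg/L array or fitting only the groups compared could change only the SE and adjusted p.

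ERO1, the thiol oxidase that hands oxidizing equivalents to Pdi1, did not follow them. Its values were 9.19, 9.24 and 9.25 in control, 9.23, 9.01 and 9.16 at 50 mg/L and 9.57, 9.24 and 9.50 at 300 mg/L. The 300 mg/L replicate 2 lay among the controls and the other two above them. The difference from control was 0.21 ± 0.09, with an adjusted p of 0.0885 by limma. Without 300 mg/L replicate 2 it was 0.30 and passed, with an adjusted p of 0.0145, as it did when arrays were centred on the S. pombe probe sets (0.25, adjusted p = 0.0413) and with array weights (0.25, adjusted p = 0.00696).

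Within the Hsp70 system, KAR2 itself barely moved. It read 11.86, 11.88 and 11.84 in control, 11.79, 11.90 and 11.79 at 50 mg/L and 11.88, 11.76 and 11.77 at 300 mg/L. The groups overlapped, and the whole range over 9 arrays was 0.14. At 300 mg/L against control the difference was -0.06 ± 0.07, with a 95% confidence interval from -0.20 to 0.09 and an adjusted p of 0.506 by limma. That interval leaves out a change in either direction as large as the one of PDI1.

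SCJ1, a J-domain partner of Kar2, read 9.42, 9.69 and 9.56 in control, 9.53, 9.71 and 9.66 at 50 mg/L and 9.53, 9.76 and 9.48 at 300 mg/L, with the groups overlapping. Its difference at 300 mg/L was 0.03 ± 0.10 (95% confidence interval -0.18 to 0.25, adjusted p = 0.801 by limma). The SCJ1 interval is wider than that of KAR2, as the gene varied more within groups.

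JEM1, the J-domain protein of the ER that also serves nuclear fusion in mating, read 6.74, 6.89 and 6.75 in control, 6.83, 7.07 and 6.99 at 50 mg/L and 6.52, 6.62 and 6.59 at 300 mg/L. It fell by 0.22 ± 0.08 at 300 mg/L (adjusted p = 0.0392 by limma). LHS1, the Hsp70 relative that exchanges Kar2's nucleotide, read 8.57, 8.62 and 8.61 in control, 8.56, 8.63 and 8.71 at 50 mg/L and 8.41, 8.47 and 8.31 at 300 mg/L. Its fall was 0.20 ± 0.07 (adjusted p = 0.03 by limma). For both genes the 300 mg/L arrays lay below all control arrays, by a small step.

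The calls of JEM1 and LHS1 were close to the threshold. JEM1 lost its call without any 1 of control replicates 1, 2 and 3, 50 mg/L replicate 3 or 300 mg/L replicates 1, 2 and 3, with an adjusted p from 0.0524 to 0.151. LHS1 lost it without any 1 of control replicates 1, 2 and 3 or 300 mg/L replicates 1 and 3, with an adjusted p from 0.0571 to 0.12. Centring on S. pombe probe sets also took the call from JEM1 and LHS1 (adjusted p = 0.0943 and 0.0665 by limma). So did centring on spike-ins (0.217 and 0.241), where the falls were larger, at -0.305 and -0.292, but the SE rose to 0.18 for each. The differences stayed between -0.30 and -0.17 for JEM1 and between -0.29 and -0.16 for LHS1 over all settings.

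The signalling genes IRE1 and HAC1 were not called at 300 mg/L. IRE1 read 7.40, 7.50 and 7.58 in control, 7.44, 7.66 and 7.48 at 50 mg/L and 7.41, 7.54 and 7.41 at 300 mg/L, with overlapping groups. Its difference from control was -0.04 ± 0.08 (95% confidence interval -0.22 to 0.15, adjusted p = 0.731 by limma). HAC1 read 11.11, 11.12 and 10.98 in control, 11.01, 10.19 and 10.89 at 50 mg/L and 11.21, 11.18 and 11.20 at 300 mg/L. All 300 mg/L arrays lay just above all controls, by a mean of 0.13 ± 0.17, with an adjusted p of 0.566 by limma. The 50 mg/L arrays share the estimate of spread, and with the control and 300 mg/L arrays alone the SE was 0.06. HAC1 was still not called there, nor under any of the 19 alternatives, where its adjusted p ran from 0.0906 to 0.909. Spliced and unspliced HAC1 mRNA are not told apart by these values, so splicing by Ire1 was not measured.

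At 50 mg/L BPA no gene of the 10 was called different from control. None passed limma, as for 0% of all genes, and none had an unadjusted p under 0.05, which 7.14% of all genes had. The smallest adjusted p among them was 0.581, and 0 of the 10 had groups that did not overlap, against 12.6% of all genes. The differences ran from -0.37 for HAC1 to 0.17 for JEM1, with a median of 0.00. For KAR2 the 95% confidence interval was -0.18 to 0.11, for PDI1 -0.08 to 0.26 and for EUG1 -0.20 to 0.14, which leave out falls of the size seen at 300 mg/L for EUG1 and PDI1. The interval of MPD1, -0.54 to 0.05, is wider.

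HAC1 had the 16th lowest difference of all 5449 genes at 50 mg/L, at -0.37 ± 0.17 (unadjusted p = 0.0548 by limma). It rested on replicate 2, where the value was 10.19 against 11.01 and 10.89 in the other replicates. Without that array the difference was -0.12. MPD1, lower by 0.25 ± 0.13 in the same group, had its lowest 50 mg/L value, 7.90, on the same array, and without it the difference was -0.09. Replicate 2 was also the highest of the 3 arrays for PDI1, JEM1, IRE1, SCJ1 and KAR2, so it stood apart in both directions. Why it did was not tested.

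**Figure D2:**
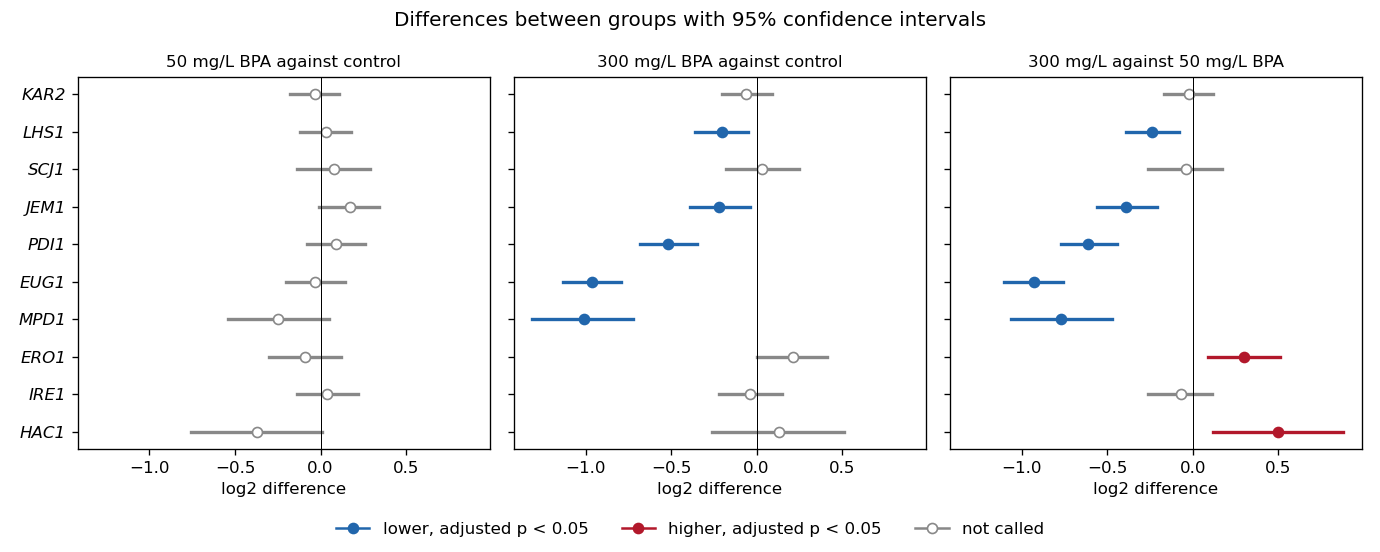
Log2 difference between groups (x axis) for each of the 10 genes (y axis), with 95% confidence intervals from limma, for the 3 comparisons. Filled points passed at an adjusted p under 0.05. At 50 mg/L no gene passed, at 300 mg/L against control 5 were lower, and at 300 against 50 mg/L 5 were lower and ERO1 and HAC1 higher.

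The comparison of 300 with 50 mg/L asks whether the doses themselves differ. It shares the 300 mg/L arrays with the comparison against control, so the 2 are not independent. Here 7 of the 10 genes passed, 5 lower and 2 higher, where 52.8% of all genes passed, 25.3% lower and 27.5% higher. Without overlap were 7 of the 10, against 59.6% of all genes, and 7 had an unadjusted p under 0.05, against 59.1%. None was called lower by 2-fold or more, as 0.881% of all genes were. EUG1 was lower by 0.93 ± 0.08, MPD1 by 0.77 ± 0.13, PDI1 by 0.61 ± 0.08, JEM1 by 0.39 ± 0.08 and LHS1 by 0.24 ± 0.07, with adjusted p by limma of 1.08e-05, 0.00089, 0.000123, 0.0023 and 0.0159. JEM1 kept its call here under 18 of 19 alternatives, whereas against control it kept it under 10. LHS1 lost it without 50 mg/L replicate 3 (adjusted p = 0.0595) or 300 mg/L replicate 3 (0.0708), and after spike-in centring (0.425).

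ERO1 and HAC1 were higher at 300 than at 50 mg/L. ERO1 differed by 0.30 ± 0.09 (adjusted p = 0.0211 by limma), and lost the call without 50 mg/L replicate 2 (0.0595), 300 mg/L replicate 1 (0.0885) or 300 mg/L replicate 3 (0.0716). It also lost the call after spike-in centring (0.196), where the difference was 0.32 and the SE 0.18. HAC1 differed by 0.50 ± 0.17 (adjusted p = 0.0321 by limma). Without 50 mg/L replicate 2 its difference shrank to 0.25, still called (adjusted p = 0.0125), and without any 1 of the 300 mg/L replicates the call was lost, with an adjusted p from 0.0648 to 0.0763, as it was in a fit of the 50 and 300 mg/L arrays alone (0.0577). KAR2, SCJ1 and IRE1 did not pass, at -0.02 ± 0.07, -0.04 ± 0.10 and -0.07 ± 0.08. By the moderated F test for any difference among the 3 groups, 6 of the 10 genes passed, all but KAR2, SCJ1, IRE1 and HAC1, where 52.9% of all genes passed. The adjusted p of the last was 0.0687.

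Whether the disulfide genes moved apart from KAR2 can be read within each array, where a shift common to the whole array cancels. On the same array, the log2 value of PDI1 less that of KAR2 was lower at 300 mg/L than in control by 0.46, that of EUG1 less KAR2 by 0.91 and that of MPD1 less KAR2 by 0.96. For ERO1 less KAR2 it was higher by 0.26 and for ERO1 less PDI1 by 0.72. In each of these relations the 3 arrays at 300 mg/L lay outside the 3 controls, giving a two-sided exact permutation p of 0.1, the smallest that 3 against 3 arrays allow. Adjusted over the 8 relations computed, it was 0.114. All relations but ERO1 less PDI1 share KAR2, and they reuse the values tested above, so they are not independent of those tests. The share of all genes that separate when set against KAR2 was not computed. Without KAR2, 67.8% of all genes did not overlap between 300 mg/L and control. SCJ1 less KAR2 changed by 0.09, with overlapping groups (exact permutation p = 0.7). LHS1 and JEM1 less KAR2 were lower by 0.15 and 0.16, without overlap. For LHS1 the nearest arrays were almost level. LHS1 and KAR2 read 8.57 and 11.86 on control replicate 1 and 8.47 and 11.76 on 300 mg/L replicate 2. At 50 mg/L PDI1 less KAR2 was higher by 0.12 and JEM1 less KAR2 by 0.20, the opposite direction, each with the same smallest exact permutation p of 0.1.

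**Figure D3:**
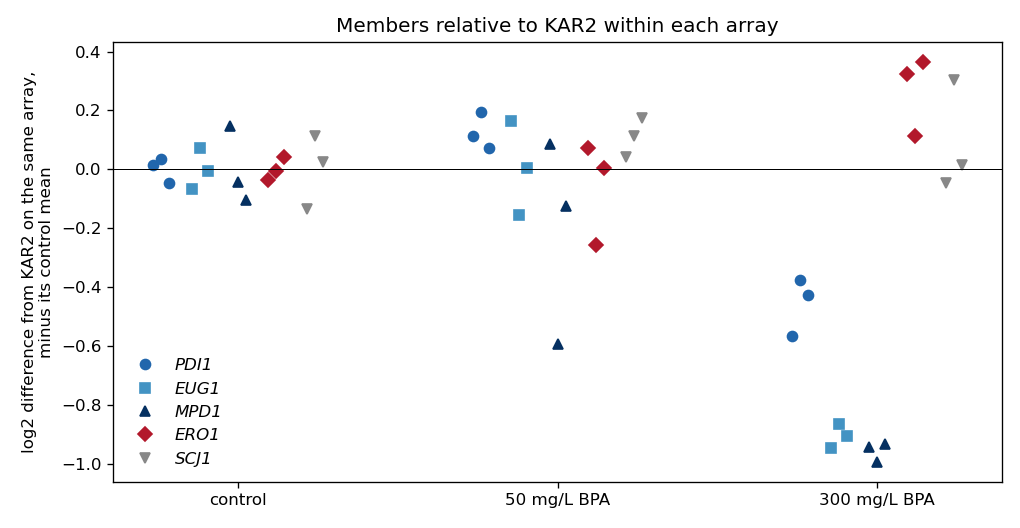
Log2 difference of PDI1, EUG1, MPD1, ERO1 and SCJ1 from KAR2 on the same array (y axis, after subtraction of the mean in control) for the 3 groups (x axis), with 1 point per array. EUG1 and MPD1 lie about 0.91 and 0.96 below their control mean at 300 mg/L, PDI1 0.46 below and ERO1 0.26 above, while SCJ1 overlaps its controls.

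Over the 9 arrays the values of EUG1 correlated with those of PDI1 (Pearson's r = 0.94) and of MPD1 (0.94), and PDI1 with JEM1 (0.91). ERO1 ran against PDI1 and JEM1, with r = -0.85 for each. These 9 points share 3 groups and 1 normalization. The group differences given above enter each r, so these values add no separate evidence that the genes vary together. At 50 mg/L, replicates 1, 2 and 3 deviated from their group mean by -0.05, 0.14 and -0.09 for PDI1. For EUG1 they deviated by 0.13, -0.09 and -0.04. The genes whose values were most like those of KAR2, among 5332 other genes above background on all arrays, were ARG2 (r = 0.782), PDC5 (0.757), HMS1 (0.749), CDC20 (0.737) and YPR196W (0.712). KAR2 spanned 0.14 over the arrays, whereas HMS1 spanned 1.5. These are the highest of 5332 correlations over 9 arrays with a gene that passed in no comparison. Whether they exceed what so many genes give without any relation was not tested.

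In 6 lists, chosen with earlier results of these data known, 116 other measured genes of the ER or pathways tied to it were followed. At 300 mg/L against control 50 of them were lower and 12 higher, or 43.1% and 10.3%, beside 25.2% and 27.5% of all genes, and their median difference was -0.18 against 0.01. Centred on hybridization spike-ins, 27 were lower and 1 higher. That centring took all genes from 1372 to 853 lower and from 1500 to 679 higher. Among the members it raised the SE of KAR2 from 0.07 to 0.18. At 50 mg/L 0 of 116 passed, as for 0% of all genes. At 300 against 50 mg/L 42 were lower and 19 higher, or 36.2% and 16.4%, beside 25.3% and 27.5% of all genes. Without 50 mg/L replicate 2, 23 genes were higher at 300 mg/L against control, and without 300 mg/L replicate 2, 7 were. Against 50 mg/L the 19 became 9 without 300 mg/L replicate 2.

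The list of other folding and disulfide genes had 9 of 16 lower (56.2%) and 0 higher, with a median of -0.25, and 5 lower after spike-in centring. CPR5, a cyclophilin of the ER, went from 10.61 ± 0.05 to 9.91 ± 0.01 (SD, n = 3), a 1.62-fold fall (adjusted p = 0.000331 by limma). SIL1, the other nucleotide exchange factor of Kar2, went from 7.88 ± 0.03 to 7.21 ± 0.05, a 1.60-fold fall (adjusted p = 8.07e-05). The remaining genes of disulfide formation and CNE1 were read as well, a choice made after their values were seen. ERV2, an oxidase that can work beside Ero1, fell by 0.48 ± 0.10 and EPS1, a membrane-bound PDI relative, by 0.27 ± 0.07, while MPD2 did not pass, at -0.13 ± 0.13. CNE1, the yeast calnexin, was level, at 0.00 ± 0.09.

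The list around UPR signalling had 4 of 8 higher (50%) and 2 lower (25%), beside 27.5% and 25.2% of all genes. After spike-in centring 0 were higher and 1 lower. TRL1, the ligase that joins the cut HAC1 mRNA, went from 6.53 ± 0.10 to 7.03 ± 0.17 (SD, n = 3), a rise of 1.41-fold (adjusted p = 0.00564 by limma). GCN4, the transcription factor of amino acid starvation, rose by 0.28 ± 0.08 (SE). PTC2, a phosphatase that acts on Ire1, named after its value was seen, rose by 0.28 ± 0.08. ADA2, of the SAGA coactivator, fell by 0.42 ± 0.10 and DCR2, another phosphatase of Ire1, by 0.32 ± 0.08.

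In ER-associated degradation, which returns misfolded proteins to the cytosol for the proteasome, 10 of 17 genes fell (58.8%) and 2 rose (11.8%), with a median of -0.25. After spike-in centring 5 fell, and 1 rose after median or spike-in centring, after repeated quantile normalization, with the replicate block, or without any 1 of control replicates 1, 2 and 3, 50 mg/L replicate 3 or 300 mg/L replicate 2. PNG1, which strips N-glycans from such proteins, fell by 0.64 ± 0.09 and the mannosidase gene MNS1 by 0.49 ± 0.08. The risers were MNL1, a mannosidase that marks misfolded glycoproteins and works with Pdi1, at 0.64 ± 0.08, and the lectin gene YOS9, at 0.26 ± 0.10. Their adjusted p by limma were 0.000181 and 0.0445.

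Of 30 glycosylation genes measured, 19 fell (63.3%) and 1 rose (3.33%), with a median of -0.30. After spike-in centring 12 fell. Without 50 mg/L replicate 2 the number that rose was 4, and without any 1 of control replicates 2 and 3 or 300 mg/L replicates 2 and 3 it was 0. ALG2, a mannosyltransferase that builds the lipid-linked oligosaccharide, went from 8.08 ± 0.09 to 7.20 ± 0.16 (SD, n = 3), a 1.84-fold fall (adjusted p = 5.17e-05 by limma), and ALG9, another, fell by 0.64 ± 0.07 (SE). The riser was OST4, a small subunit of the oligosaccharyltransferase, at 0.31 ± 0.11, and none rose after median centring. Split by step after the values were seen, all 6 protein O-mannosyltransferase genes (PMT1 to PMT6) fell, by 0.29 to 0.51. Of the 13 ALG genes, DIE2 counted among them, 8 fell and 0 rose. Of 9 oligosaccharyltransferase subunits 3 fell and 1 rose.

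WBP1, one of these subunits, was looked at because it also has 3 control probe sets along its transcript, and it fell by 0.43 ± 0.06. They were lower at 300 mg/L by 0.37 at the 3' end, 0.57 in the middle and 0.63 at the 5' end. The same parts of the actin gene ACT1 were lower by 0.16, 0.18 and 0.16. The direction was thus the same along WBP1, with a size that depended on the part probed.

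Among genes of entry into the ER, in the translocation and signal recognition list, 5 of 21 rose (23.8%) and 3 fell (14.3%), with a median of 0.11. Both shares are below those of all genes. Without 50 mg/L replicate 2 the counts were 9 and 5, 3 rose without any 1 of control replicate 1 or 300 mg/L replicates 1 and 2, 1 fell without any 1 of control replicates 2 and 3 or 300 mg/L replicate 3, and after spike-in centring 0 passed in either direction. SBH1 and SSS1, small subunits of the Sec61 channel, rose by 0.49 ± 0.07 and 0.46 ± 0.09, while SEC61, the channel's core, named after its value was seen, did not pass, at 0.11 ± 0.07. SRP72, of the signal recognition particle, fell by 0.33 ± 0.09 and SEC66, of the Sec63 complex, by 0.29 ± 0.10. In the COPII and COPI transport list 7 of 24 fell (29.2%, near the 25.2% of all genes) and 0 rose, led by the COPI genes SEC28, by 0.75 ± 0.11, and RET2, by 0.53 ± 0.08. The 7 became 4 after spike-in centring or without any 1 of control replicates 1 and 2 or 300 mg/L replicate 3, and 12 with array weights, and 3 rose without 50 mg/L replicate 2.

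Chaperones of other compartments were set beside these. Among cytosolic Hsp70 and Hsp90 genes 6 of 22 rose (27.3%) and 7 fell (31.8%), near the shares of all genes, with a median of -0.03. After spike-in centring 2 rose and 3 fell, and without control replicate 1, 4 fell. SSA4, a stress-inducible Hsp70, went from 8.65 ± 0.21 to 9.95 ± 0.71 (SD, n = 3) and rose by 1.29 ± 0.28 (SE), SSA3 rose by 0.62 ± 0.10, SSE2 fell by 0.69 ± 0.13 and CDC37 by 0.48 ± 0.09. Among mitochondrial matrix chaperone genes 1 of 12 rose, the J-domain gene MDJ1, at 0.81 ± 0.08, and 2 fell, SSQ1 by 0.46 ± 0.09 and JAC1 by 0.19 ± 0.06. These shares, 8.33% and 16.7%, are below the 27.5% and 25.2% of all genes. Without 50 mg/L replicate 2 or 300 mg/L replicate 2, 2 of these 12 rose, and without any 1 of control replicates 1 and 2 or 300 mg/L replicates 2 and 3, 1 fell. No test between lists was made.

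**Figure D4:**
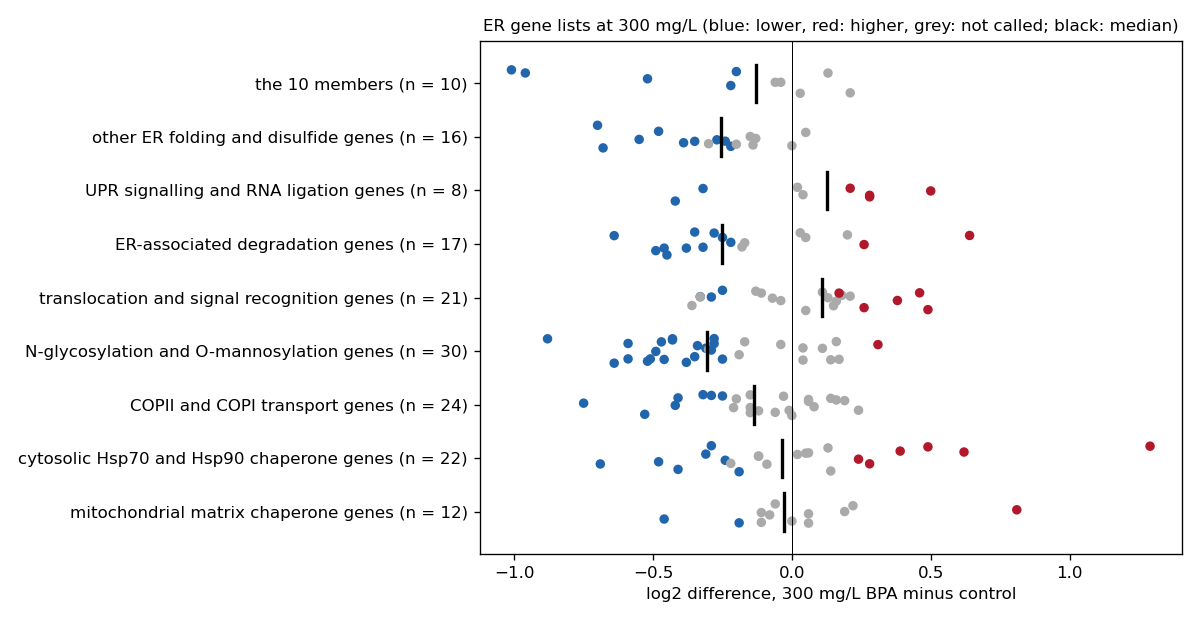
Log2 difference of each gene at 300 mg/L BPA from control (x axis) in the 10 genes and 8 lists (y axis), with 1 point per gene. Blue points were lower and red points higher at an adjusted p under 0.05, grey points did not pass, and black bars are medians. The medians run from -0.30 for glycosylation to 0.13 for the signalling list, whose 8 genes include TRL1 at 0.50.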

How the data were processed

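Gene expression was measured on 1-colour oligonucleotide arrays. The authors deposited normalized log2 values, and RMA, affy and limma are named without versions or roles, per the submitters' processing notes. Of 10928 probe sets, 5498 matched the R64 table of S. cerevisiae genes by gene identifier. Where a gene had more than 1, its brightest on average was taken, which left 5449 genes. Background was the 95th percentile of 1746 S. pombe probe sets on each array.

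The 9 arrays entered 1 limma fit (version 3.58.1, R 4.3.3) with empirical Bayes moderation. Tests were two-sided, and p-values were adjusted by Benjamini-Hochberg over the 5449 genes, with 0.05 as the threshold. Errors of differences are SEs and errors of levels SDs of 3 arrays. The fit was tried on simulated data with independent noise and few changed genes. That setting is unlike these arrays, where 52.7% of genes passed at 300 mg/L, so it does not speak for the calls here. Alternatives were scaling, probe set rule, filter, fit, array weights, replicate block and leaving out each array. The labels do not say how the cultures were started, so p-values may measure technical spread only. The number of arrays limits the precision. Deviations of same-numbered control and 50 mg/L arrays correlated at 0.189 to 0.42, and those of differently numbered ones at -0.428 to 0.18. The numbers may thus pair these groups, but the p-values of the results come from the fit without pairing. The replicate block was an alternative only. Same-numbered arrays between other groups reached -0.337, and differently numbered arrays of 50 and 300 mg/L reached 0.404.

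The 10 genes and the lists were chosen with earlier results of these data known. The rule for named genes takes all members, the 2 largest rises and 2 largest falls of each list among genes past the threshold at 300 mg/L against control, and the 5 genes most correlated with KAR2. The lists hold 150 measured genes. No sequences were used. Figures were drawn with matplotlib 3.10.9.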

Additional observations from a re-analysis of the deposited data

How the results depend on the processing

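Scaling mattered most for small differences. At 300 mg/L against control, centring on S. pombe probe sets gave 1 of the 10 genes higher and 3 lower. Centring on hybridization spike-ins gave 3 of the 10 lower, 679 genes higher and 853 lower among all genes and 1 and 27 in the 6 lists. Against 50 mg/L the same centring gave 1 of the 10 higher and 3 lower, 882 and 535 among all genes, 4 and 13 in the lists, and 1503 genes by the F test. In fits of only the 2 groups compared, 21 list genes were higher against control, and 1 of the 10 against 50 mg/L. Array weights, whose estimation stopped before converging, gave 1 of the 10 and 23 list genes higher at 300 mg/L, and 14 genes higher and 17 lower at 50 mg/L, none of them among the 10. With the replicate block, the fit of the 6 arrays at 0 and 50 mg/L gave 1 gene higher among all genes and 0 of the 10, and blocks changed no call of the 10.

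Leaving out each array in turn at 300 mg/L against control gave 0 to 1 of the 10 higher and 3 to 5 lower, and 7 to 23 list genes higher. Against 50 mg/L it gave 0 to 2 of the 10 and 9 to 22 list genes higher.

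Only uncalled differences turned sign. Against 50 mg/L KAR2 was at 0.000995 after repeated quantile normalization, 0.0162 with S. pombe centring and 0.0192 with array weights, and IRE1 against control at 0.0082 with S. pombe centring. Spike-in centring put SCJ1 at -0.055 at 300 mg/L, and LHS1, SCJ1, PDI1 and IRE1 at -0.0779, -0.0328, -0.0175 and -0.071 at 50 mg/L. Array weights put SCJ1 at -0.0674 at 300 mg/L and PDI1 and IRE1 at -0.00775 and -0.00925 at 50 mg/L. Leaving out arrays moved IRE1 from -0.0848 to 0.00937 and SCJ1 from -0.0532 to 0.0981 at 300 mg/L, EUG1 from -0.0941 to 0.0169, IRE1 from -0.0272 to 0.0837 and LHS1 from -0.00855 to 0.0682 at 50 mg/L, and KAR2 from -0.0641 to 0.0117 and SCJ1 from -0.129 to 0.0116 between the doses. The cause of these changes was not tested.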

Other observations

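The genes next to the 10 members on their chromosomes, among measured genes, were read at 300 mg/L against control. Of the 20 neighbours 4 rose, 3 fell and 13 did not pass, where 52.7% of all genes passed. SAE3, a meiotic recombination factor beside IRE1, was not above background in any of the 3 control arrays and read 5.44 ± 0.41 (SD, n = 3) at 300 mg/L, at least 9.72-fold higher (adjusted p = 5.33e-07 by limma). IRE1 itself differed by -0.04. HCA4, an RNA helicase gene of ribosome assembly, and TAD2, a tRNA deaminase gene, lie on either side of KAR2 and rose by 1.80 ± 0.17 and 0.72 ± 0.07 (SE), with KAR2 at -0.06. MGR1, beside PDI1, rose by 0.46 ± 0.12 where PDI1 fell. CEF1 and GAS3, on either side of SCJ1, fell by 0.58 ± 0.13 and 0.53 ± 0.07, with SCJ1 at 0.03. YOR289W, beside MPD1, fell by 0.47 ± 0.16.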
